A study of Mus musculus with 16 samples.

Results

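The myosin light chains of skeletal muscle and the kinase that phosphorylates them are described here across 2 muscles and 2 genotypes. They are 8 genes, *Myl1*, *Myl2*, *Myl3*, *Myl4*, *Myl6*, *Myl6b*, *Mylpf* and *Mylk2*, of the 24421 genes counted in each library, found by their symbol, and 8 of the 8 passed the filter on low counts in every comparison. The 8 genes were chosen by name with earlier results of these libraries known, in which *Myl6b* had stood out between the genotypes in both muscles. The genotype values of the 8 genes are therefore a description, given without p-values, in which counts of genes past a threshold stand beside the share of all genes and support nothing. Tests of the 8 genes were run on the difference between the muscles.

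Poly(A) RNA was sequenced from gastrocnemius (Gas), a muscle made mostly of fast fibers, and soleus (Sol), which is rich in slow fibers, with 3 WT and 5 LSD1-mKO libraries of each, 16 in all. LSD1-mKO mice carried *Lsd1* flox/flox alleles and a CreERT2 recombinase under the human *ACTA1* promoter, which is active in differentiating and differentiated muscle cells, and WT mice carried floxed *Lsd1* without CreERT2. *Lsd1* is the gene listed as *Kdm1a* and encodes a histone demethylase. All mice were C57BL/6 males aged 8 weeks, and all received tamoxifen at 75 mg/kg for 5 days and dexamethasone (Dex), a synthetic glucocorticoid that wastes muscle, at 1 mg/kg for 7 days. No library came from a mouse without Dex or without tamoxifen, and because WT mice had no Cre, the loss of *Lsd1* and the presence of active Cre cannot be told apart.

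Each myosin motor has heavy chains whose lever arms bind an essential and a regulatory light chain. The essential chain stiffens the lever arm, while the regulatory chain is phosphorylated by a calmodulin-dependent kinase and thereby tunes contraction. Fast fibers use *Mylpf* as regulatory and *Myl1* as essential chain, and slow fibers use *Myl2* and *Myl3*, the chains of the heart ventricle. *Myl4* is the essential chain of embryonic muscle and the heart atrium, *Myl6* is the essential chain of smooth muscle and non-muscle myosin, and *Myl6b* is an essential chain known from slow muscle and non-muscle cells. *Mylk2* is the light chain kinase of skeletal muscle. Each muscle is a mixture of fibers and other cells, so fewer cells of a type and less RNA per cell cannot be told apart in these values.

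*Kdm1a* was lower in every LSD1-mKO library than in every WT library of its muscle, at 41.8 ± 5.70 CPM in WT Gas (SD, n = 3), 14.2 ± 2.19 in LSD1-mKO Gas (n = 5), 34.2 ± 0.752 in WT Sol (n = 3) and 10.9 ± 1.72 in LSD1-mKO Sol (n = 5). CPM is the read count per gene brought to one library size by TMM scaling over the 16 libraries. The libraries held from 10130415 to 24576377 reads assigned to genes. In 3 libraries, WT Gas 3, LSD1-mKO Gas 5 and WT Sol 2, the mean log2 CPM of 78 ribosomal protein genes lay over 0.4 above the median of the muscle. The same libraries held the highest value of their group for 6, 5 and 8 of the 8 light chain genes, respectively. The share of all genes that peaked in these libraries was not counted, so whether this is particular to the light chains was not tested. WT Gas 3 stood apart from its group over all genes, with r = 0.9689 to WT Gas 1 and 0.9675 to WT Gas 2 (Pearson, log2 counts). WT Gas 1 and WT Gas 2 had r = 0.9917 with each other and at least 0.974 with every Sol library. WT Gas 3 is 1 of the 3 libraries behind each WT Gas mean. The fiber types matched the labels in the 6 slow fiber markers, which summed to 728 to 1433 CPM in WT Gas and 21965 to 24104 CPM in WT Sol.

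*Myl6b* and *Myl6* lie side by side on chromosome 10 of GRCm38, both on the minus strand. In the GENCODE annotation, *Myl6b* runs from 128494157 to 128498685 with 1 basic transcript and *Myl6* from 128490860 to 128494145, which leaves 11 bases between them. The stretch below is shown because it is the pair of 75-base coding runs in which both genes are most alike, and 75 bases is the length of a read. The capitals mark the 3 bases at which they differ.
*Myl6b*, coding bases 234 to 308, chr10:128496288-128496362, minus strand: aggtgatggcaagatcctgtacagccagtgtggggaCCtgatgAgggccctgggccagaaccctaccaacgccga
*Myl6*, coding bases 66 to 140, chr10:128492637-128492711, minus strand: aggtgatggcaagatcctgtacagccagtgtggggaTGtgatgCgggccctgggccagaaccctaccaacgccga
Each of these stretches lies in 1 exon. Among the 28 pairs of the 8 genes, no pair shared an exact run of 75 bases in protein-coding transcripts, and the fewest differences over 75 bases ranged from 3, in this pair, to 36. Reads that matched several places were not counted by the authors' settings.

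The upstream sequences of *Myl6b*, *Myl3* and *Mylpf* are shown because the first pair was higher in Sol than in Gas and *Mylpf* lower. They are RefSeq windows on GRCm38.p6 of up to 250 bases before the annotated start, without bases of annotated exons. The RefSeq starts used for *Mylpf* (127211608) and *Myl3* (110763678) lie inside the wider GENCODE spans of these genes given with their values, so these windows precede 1 start and not the outermost one, while for *Myl6b* both annotations begin at the same base. Capitals mark matches on either strand to 5 motifs, which are TATAAA (the core of the TATA box), the E-box with the letters CANNTG, the MCAT element with the letters CATTCC, the CArG box and the MEF2 site. No matches overlapped in the windows printed.
*Myl6b*, chr10:128498686-128498935, minus strand: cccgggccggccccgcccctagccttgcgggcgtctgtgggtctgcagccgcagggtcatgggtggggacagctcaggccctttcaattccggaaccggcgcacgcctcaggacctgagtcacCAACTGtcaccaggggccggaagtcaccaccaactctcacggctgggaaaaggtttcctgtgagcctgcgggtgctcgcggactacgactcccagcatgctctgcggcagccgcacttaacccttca
*Myl3*, chr9:110763428-110763645, plus strand: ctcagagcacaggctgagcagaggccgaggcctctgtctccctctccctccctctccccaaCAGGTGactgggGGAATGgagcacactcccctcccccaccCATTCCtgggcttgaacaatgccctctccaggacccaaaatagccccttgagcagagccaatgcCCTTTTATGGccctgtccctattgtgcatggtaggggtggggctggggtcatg
*Mylpf*, chr7:127211358-127211607, plus strand: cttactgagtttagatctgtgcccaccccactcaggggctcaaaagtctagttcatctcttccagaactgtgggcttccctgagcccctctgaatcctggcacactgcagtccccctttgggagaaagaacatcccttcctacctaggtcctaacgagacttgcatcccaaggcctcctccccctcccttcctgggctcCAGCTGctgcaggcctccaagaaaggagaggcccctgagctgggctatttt
In its 250 bases *Myl6b* held 1 match to CANNTG and no other match, and *Mylpf* likewise held 1 match to CANNTG. *Myl3* held 1 match to CANNTG, 2 to CATTCC and 1 to the CArG box, in a window of 218 bases that stops 33 bases before the start. Of 32851 mouse promoter windows of 250 bases, 66.2% held CANNTG, 12.6% held the MCAT element, 12.4% held TATAAA, 1.47% held the CArG box and 2.92% held the MEF2 site. These matches are a description of letters, and none of the windows of *Myl6b*, *Myl3* and *Mylpf* held TATAAA or the MEF2 site.

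The comparison of Sol with Gas asked which light chains separate the muscles. In WT mice, 7 of the 8 genes differed between Sol and Gas (edgeR quasi-likelihood test, adjusted p under 0.05 over 13749 genes), 3 higher and 4 lower in Sol, beside 17.0% of all genes tested. In LSD1-mKO mice, 6 of the 8 genes differed, 3 higher and 3 lower in Sol, beside 24.5% of all genes. The median log2 fold change of the 8 genes was -0.88 in WT and 0.51 in LSD1-mKO, while that of all genes was -0.01 and 0.00. Because the 8 genes went both ways, each median lies midway between *Myl6* and *Myl4* and does not show a shift of the set. The muscles were counted in separate tables, and a difference between muscles and one between their library sets cannot be told apart. The plot of levels in each library shows the 8 genes on a scale per kb of exon, the scale used below to set genes beside each other.

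**Figure D1:**
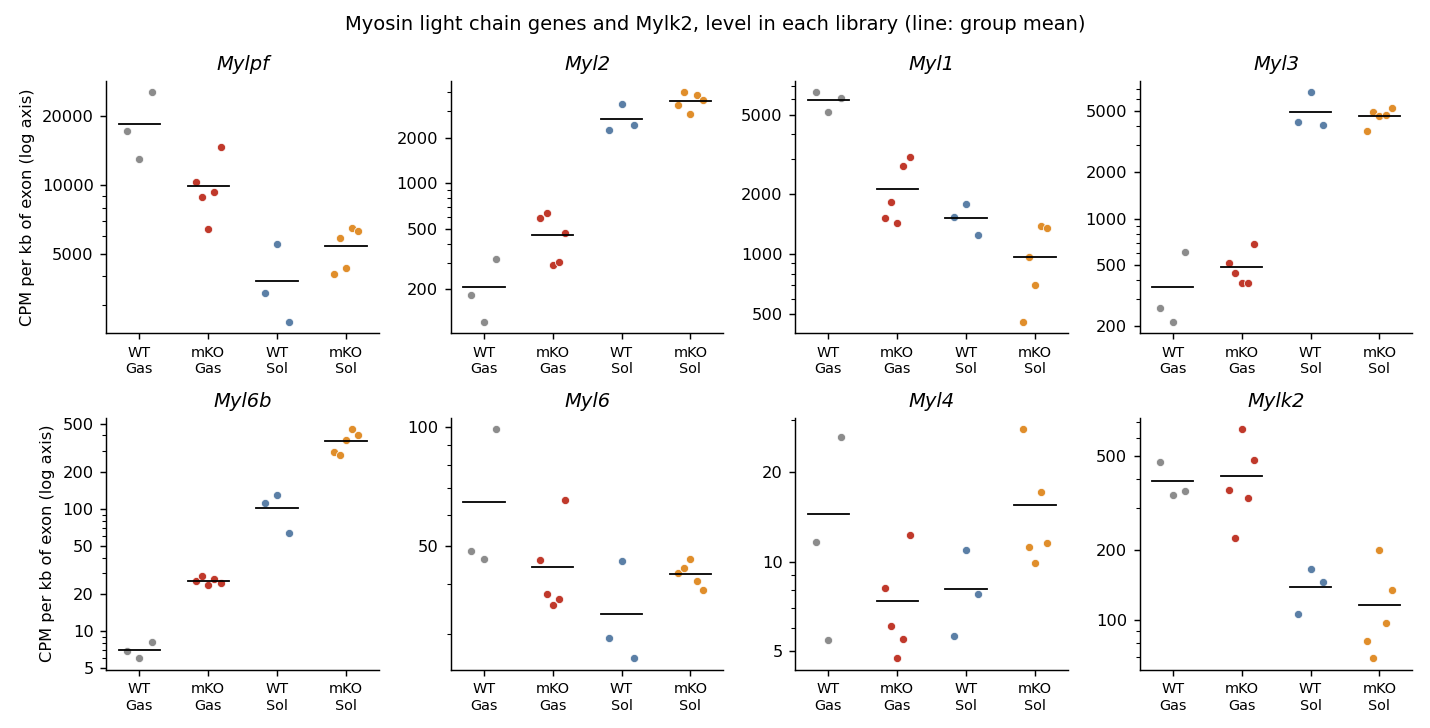
Level of each gene (CPM per kb of exon, logarithmic axis) in the 3 WT and 5 LSD1-mKO (mKO) libraries of Gas and of Sol, with a point for each library and a line at the group mean. *Myl6b* forms 4 separate steps from WT Gas (mean 6.98) to LSD1-mKO Sol (mean 358), whereas the groups of *Myl4* and *Myl6* lie across each other.

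*Mylpf*, the fast regulatory chain, lies on chromosome 7 from 127208890 to 127214298. Its level was 14072, 10663 and 20825 CPM in the 3 WT Gas libraries and 2771, 4518 and 2081 CPM in WT Sol. In LSD1-mKO mice it was 8507, 7273, 5292, 7696 and 12038 CPM in Gas and 3355, 4838, 3574, 5352 and 5181 CPM in Sol. Every WT Gas library was above every WT Sol library, while in LSD1-mKO mice LSD1-mKO Sol 4 reached just above the lowest Gas library, LSD1-mKO Gas 3. *Mylpf* was 4.86-fold lower in Sol than in Gas in WT mice (log2 fold change -2.28 ± 0.35 SE, edgeR adjusted p = 3.34e-04). In LSD1-mKO mice it was 1.83-fold lower (-0.87 ± 0.26, edgeR adjusted p = 0.0228), and this call was lost without LSD1-mKO Gas 5 (-0.69) and with a ribosomal protein covariate (-0.34).

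*Myl2*, the slow and ventricular regulatory chain on chromosome 5 from 122100951 to 122113472, ran the other way. Its level was 228, 152 and 396 CPM in WT Gas and 2796, 4148 and 3018 CPM in WT Sol. LSD1-mKO libraries held 736, 795, 362, 375 and 581 CPM in Gas and 4064, 4948, 3545, 4783 and 4430.0 CPM in Sol. The muscles did not overlap in either genotype. *Myl2* was 12.8-fold higher in Sol in WT mice (3.68 ± 0.38, edgeR adjusted p = 7.36e-06) and 7.64-fold higher in LSD1-mKO mice (2.93 ± 0.28, edgeR adjusted p = 1.69e-06). Even in Sol the fast chain was abundant: per kb of exon, *Mylpf* stood at 3814 ± 1534 CPM per kb (SD, n = 3) and *Myl2* at 2672 ± 583 CPM per kb in WT Sol, and their ranges overlapped. Not divided by length, the means stood the other way, at 3123 ± 1256 CPM for *Mylpf* and 3321 ± 725 CPM for *Myl2*.

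*Myl1*, the fast essential chain on chromosome 1 from 66924295 to 66945404, fell in Sol with *Mylpf*. Its level was 9562, 7633 and 8961 CPM in WT Gas and 2266, 2648 and 1839 CPM in WT Sol. In LSD1-mKO mice it was 2242, 2697, 2109, 4098 and 4564 CPM in Gas and 678, 1434, 1039.9, 2045 and 1988 CPM in Sol, lowest in LSD1-mKO Sol 1 and highest in LSD1-mKO Sol 4. The Sol libraries lay below the Gas libraries of the same genotype without overlap. *Myl1* was 3.87-fold lower in Sol in WT (-1.95 ± 0.38, edgeR adjusted p = 0.00214) and 2.19-fold lower in LSD1-mKO mice (-1.13 ± 0.29, edgeR adjusted p = 0.00899). The LSD1-mKO call was lost with the ribosomal protein covariate (-0.92, edgeR adjusted p = 0.0551).

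*Myl3*, the slow and ventricular essential chain on chromosome 9 from 110741861 to 110769798, was higher in Sol, like *Myl2*. It stood at 283, 229.5 and 648 CPM in WT Gas and at 4527, 7050.5 and 4332 CPM in WT Sol. In LSD1-mKO mice the values were 555, 478, 406, 409 and 736 CPM in Gas and 3985, 5299.9, 4949, 5022 and 5627 CPM in Sol. WT Gas 3 held more than 2 times the *Myl3* of the other WT Gas libraries and still lay far below any Sol library. *Myl3* rose 13.7-fold from Gas to Sol in WT (3.78 ± 0.38, edgeR adjusted p = 5.84e-06) and 9.63-fold in LSD1-mKO mice (3.27 ± 0.28, edgeR adjusted p = 5.59e-07).

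*Myl6b*, the essential chain of slow muscle and non-muscle cells, was higher in Sol in both genotypes, with the largest fitted difference of the 8 genes, although in WT *Myl3* and *Myl2* lay within its error. It was sparse in WT Gas, where the 3 libraries held 135, 104 and 73 reads, or 7.07, 6.15 and 8.28 CPM. WT Sol held 114, 135 and 65.7 CPM. LSD1-mKO Gas held 26.2, 29.0, 24.5, 27.6 and 25.6 CPM, the narrowest range of the 4 groups relative to its mean, and LSD1-mKO Sol held 302, 285, 376, 462 and 411 CPM. The groups followed the order WT Gas, LSD1-mKO Gas, WT Sol and LSD1-mKO Sol, and no neighbours in this order overlapped. From Gas to Sol, *Myl6b* rose 14.7-fold in WT (3.88 ± 0.27, edgeR adjusted p = 1.36e-07) and 13.8-fold in LSD1-mKO mice (3.79 ± 0.20, edgeR adjusted p = 2.86e-09).

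*Myl6*, the essential chain shared by smooth muscle and non-muscle myosin, is the gene next to *Myl6b*. Its level was 82.2, 78.2 and 167 CPM in WT Gas and 49.4, 77.3 and 44.0 CPM in WT Sol. In LSD1-mKO mice it was 77.8, 64.1, 60.0, 62.0 and 110.3 CPM in Gas and 72.3, 74.5, 78.6, 68.9 and 65.4 CPM in Sol. The muscles did not overlap in WT mice, by a margin of 77.3 CPM in WT Sol 2 to 78.2 CPM in WT Gas 2, and overlapped in LSD1-mKO mice. In WT mice it was 1.91-fold lower in Sol (-0.94 ± 0.29, edgeR adjusted p = 0.0363), but this call was lost without WT Gas 3 (-0.52), WT Sol 1 or WT Sol 3, and with the ribosomal protein covariate the difference was -0.01. In LSD1-mKO mice the log2 fold change was -0.06 ± 0.22 (edgeR adjusted p = 0.880), with an interval of 2 SE on each side from -0.51 to 0.39, and with that covariate it turned to 0.51 (edgeR adjusted p = 0.00300). The 5 markers of smooth muscle, a tissue in which *Myl6* is abundant, summed to 329.8 to 351 CPM in WT Gas and 229 to 395 CPM in WT Sol, and their part in these values was not tested.

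*Myl4*, the embryonic and atrial essential chain on chromosome 11 from 104550663 to 104595753, was the scarcest light chain per kb in all groups but WT Gas. Its level was 14.0, 6.56 and 31.5 CPM in WT Gas, 9.82, 7.30, 5.68, 6.58 and 14.8 in LSD1-mKO Gas, 6.74, 13.1 and 9.38 in WT Sol and 33.5, 13.4, 11.9, 20.6 and 13.9 in LSD1-mKO Sol. The highest value of a group was more than 2 times its median in WT Gas, in LSD1-mKO Gas and in LSD1-mKO Sol. The difference of Sol from Gas was -0.82 ± 0.50 in WT (edgeR adjusted p = 0.277, interval of 2 SE on each side from -1.81 to 0.18) and 1.07 ± 0.38 in LSD1-mKO mice (edgeR adjusted p = 0.0510, from 0.30 to 1.84). The LSD1-mKO difference lay at the threshold, which it passed in 5 of 7 other settings (log2 fold change 1.05 to 1.95 over the 7), among them DESeq2 and, at 1.95, the ribosomal protein covariate. It also passed without WT Gas 2, WT Gas 3, WT Sol 2, LSD1-mKO Gas 5 or LSD1-mKO Sol 3, and the WT difference turned to 0.68 with the ribosomal protein covariate.

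*Mylk2*, the kinase on chromosome 2 from 152911352 to 152923068, followed the fast chains. It stood at 1397, 1013 and 1050.4 CPM in WT Gas and 315, 487 and 429 CPM in WT Sol. LSD1-mKO libraries held 1065, 659.9, 1927, 982 and 1422 CPM in Gas and 240.2, 203, 588, 288 and 396 CPM in Sol, with LSD1-mKO 3 highest in both muscles. No Sol library reached a Gas library of the same genotype. *Mylk2* was 2.81-fold lower in Sol in WT (-1.49 ± 0.39, edgeR adjusted p = 0.0144), a call lost without WT Sol 1 or WT Sol 3 and with the ribosomal protein covariate (-1.35). In LSD1-mKO mice it was 3.53-fold lower (-1.82 ± 0.30, edgeR adjusted p = 3.38e-04).

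**Figure D2:**
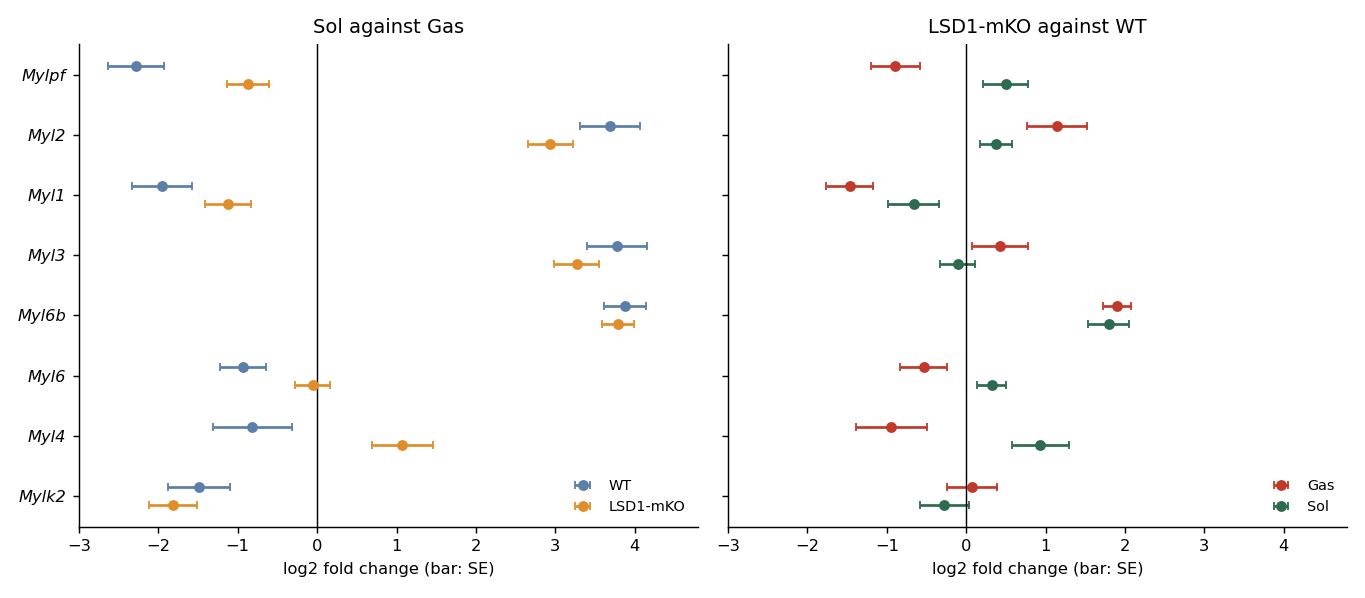
Log2 fold change of each gene with its standard error, on the left for Sol against Gas in WT and in LSD1-mKO mice and on the right for LSD1-mKO against WT in Gas and in Sol. On the left *Myl2*, *Myl3* and *Myl6b* lie between 2.93 and 3.88 in both genotypes, and on the right *Myl6b* lies apart at 1.90 in Gas and 1.79 in Sol.

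Across the 4 groups, *Myl6b* was the gene of the 8 whose groups all stood apart. *Myl1* was lowest in LSD1-mKO Sol, then WT Sol and LSD1-mKO Gas, each overlapping the next, with WT Gas above all. *Myl2* and *Myl3* ran from WT Gas, overlapping LSD1-mKO Gas, to the Sol groups, which overlapped each other. For *Mylpf*, *Myl4* and *Myl6* each group overlapped the next, and for *Mylk2* both Sol groups lay below both Gas groups.

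Levels per kb of exon gave the makeup of each muscle. In WT Gas the order was *Mylpf* (18543 ± 6315 CPM per kb, SD, n = 3), *Myl1* (5911 ± 669), *Mylk2*, *Myl3*, *Myl2*, *Myl6*, *Myl4* and *Myl6b* (6.98 ± 1.04), and the ranges of *Mylk2* and *Myl3*, of *Myl3* and *Myl2*, and of *Myl4* and *Myl6b* overlapped. In WT Sol the order was *Myl3* (4969.9 ± 1421 CPM per kb), *Mylpf*, *Myl2*, *Myl1* (1526 ± 274), *Mylk2*, *Myl6b* (102 ± 34.6), *Myl6* and *Myl4*. There *Myl3* overlapped *Mylpf*, *Mylpf* overlapped *Myl2*, and *Mylk2* overlapped *Myl6b*. In LSD1-mKO Gas *Myl6b* (25.9 ± 1.72 CPM per kb, n = 5) stood above *Myl4* (7.35 ± 3.06) without overlap, and in LSD1-mKO Sol *Myl6b* (358 ± 72.1) stood above *Mylk2* (116 ± 52.5) without overlap. The lengths are those of GENCODE exons and may differ from the models the authors counted on. Without this division *Myl2* averaged above *Mylpf* in WT Sol.

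Shares within a library do not depend on how libraries are scaled to each other. *Myl2* made up 1.06, 0.933 and 1.24% of the length-divided reads of *Myl2* and *Mylpf* in the WT Gas libraries and 39.9, 37.7 and 48.9% in WT Sol. Of the reads not divided by length, it made up 50.2, 47.9 and 59.2% in WT Sol. In LSD1-mKO mice the length-divided slow share was 5.39, 6.72, 4.31, 3.11 and 3.08% in Gas and 44.4, 40.3, 39.5, 37.1 and 36.0% in Sol. The share of *Myl3* in *Myl3* and *Myl1* was 5.67% ± 2.96 in WT Gas (SD, n = 3), 19.3% ± 4.85 in LSD1-mKO Gas (n = 5), 76.2% ± 2.63 in WT Sol (n = 3) and 83.3% ± 4.88 in LSD1-mKO Sol (n = 5). In every Sol library the slow share was higher among the essential than among the regulatory chains.

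*Myl6b* made up 0.101, 0.110 and 0.118% of the 5 essential chains (*Myl1*, *Myl3*, *Myl4*, *Myl6* and *Myl6b*) in WT Gas and 1.20, 1.21, 1.27, 0.832 and 0.642% in LSD1-mKO Gas. In Sol its share was 1.88, 1.53 and 1.18% in WT and 6.45, 4.43, 6.35, 6.82 and 5.66% in LSD1-mKO libraries. All 3 shares were higher in every Sol than in every Gas library of the same genotype. An exact two-sided permutation test gave p = 0.00794 for each share in LSD1-mKO mice (adjusted p = 0.0159 over 6 tests), the smallest that 5 against 5 libraries allow. Within the 5 same-numbered pairs, which deviated together, an exact test gave p = 0.0625 for each, the smallest that 5 pairs allow, so no share could pass 0.05 there. In WT mice the exact test gave p = 0.1 for each share, the smallest that 3 against 3 allow, so no WT share could pass 0.05.

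**Figure D3:**
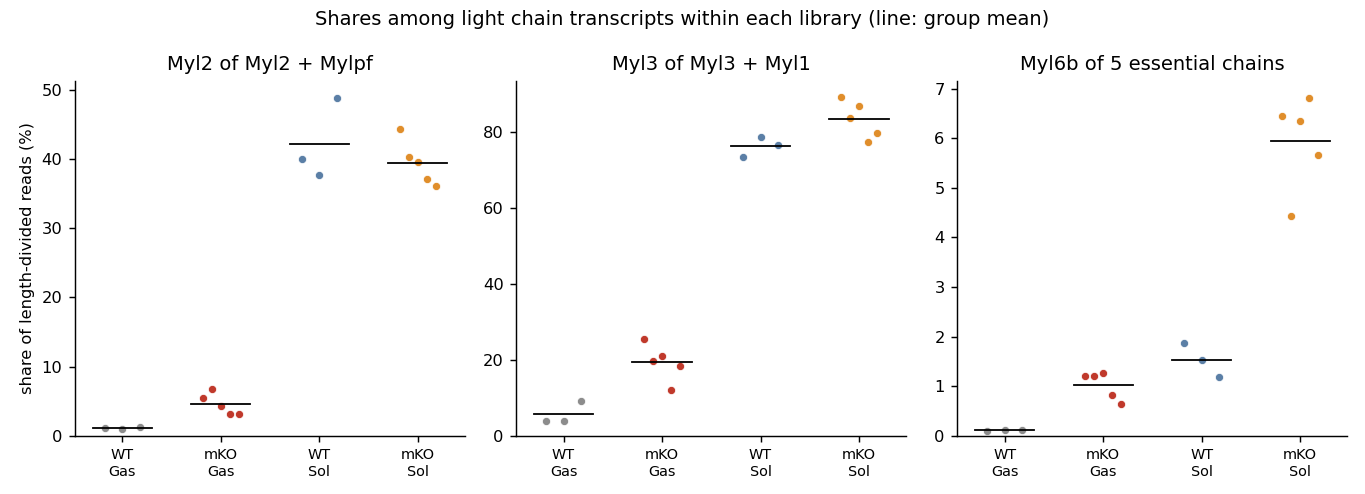
Share (%) of *Myl2* in *Myl2* and *Mylpf*, of *Myl3* in *Myl3* and *Myl1*, and of *Myl6b* in the 5 essential chains, after division of the reads by exon length, with a point for each library and a line at the group mean. Within each genotype, every share was higher in Sol than in Gas, and *Myl6b* reached at most 6.82%, in LSD1-mKO Sol.

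The genotype values are a description, since *Myl6b* was chosen for them. Of the 8 genes, 1, *Myl6b*, passed an adjusted p under 0.05 in Gas (edgeR, beside 0.0307% of the 13040 genes tested) and 1, again *Myl6b*, in Sol (beside 0.967% of 13342). In Gas, *Myl1* passed this threshold in at least 1 of 6 other settings but not in all of them. *Myl6b* in Gas likewise did not pass in all 6. In Gas the log2 fold change of *Myl6b*, LSD1-mKO over WT, was 1.90 ± 0.18 SE, or 3.73-fold, from 7.17 ± 1.07 CPM (SD, n = 3) to 26.6 ± 1.77 CPM (n = 5). In Sol it was 1.79 ± 0.26, or 3.47-fold, from 105 ± 35.5 CPM (n = 3) to 367 ± 74.0 CPM (n = 5). Every LSD1-mKO library was above every WT library of its muscle, and LSD1-mKO Gas stayed below WT Sol. The log2 fold change kept within 1.82 to 2.01 in Gas and 1.56 to 2.03 in Sol when each library was left out in turn. The Gas call was lost without WT Gas 1 or WT Gas 2 and the Sol call without WT Sol 1 or WT Sol 3.

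Among the other members, ranges without overlap between genotypes were found for *Myl1* in Gas, which made 2 of the 8 genes with *Myl6b*, beside 6.95% of all genes in Gas. In Sol *Myl6b* was the 1 gene of the 8 without overlap, beside 10.8% of all genes. *Myl1* in Gas was 8719 ± 987 CPM in WT and 3142 ± 1119 CPM in LSD1-mKO libraries (-1.47 ± 0.29), and in Sol 2251 ± 405 and 1437 ± 593 CPM (-0.66 ± 0.32). The other fast chain, *Mylpf*, was -0.89 ± 0.31 in Gas and 0.50 ± 0.28 in Sol, and its genotypes overlapped in both muscles.

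The slow chain *Myl2* was 1.15 ± 0.38 in Gas, where LSD1-mKO Gas 3 and LSD1-mKO Gas 4 lay below WT Gas 3, and 0.38 ± 0.21 in Sol. *Myl3* was 0.42 ± 0.35 in Gas and -0.11 ± 0.22 in Sol. *Myl4* was -0.94 ± 0.45 in Gas and 0.93 ± 0.35 in Sol, *Myl6* was -0.54 ± 0.29 and 0.32 ± 0.18, and the kinase *Mylk2* was 0.07 ± 0.32 and -0.27 ± 0.31, all on the log2 scale for LSD1-mKO over WT. Their genotypes overlapped in each muscle. The median of the 8 genes was -0.23 in Gas and 0.35 in Sol, beside 0.01 and -0.01 for all genes. The 8 genes went both ways in each muscle, so these medians do not show a shift of the set.

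WT Gas 3, a library of high ribosomal protein level, had the highest WT value of *Myl3*, *Myl4* and *Myl6* in Gas. Without it their genotype differences moved to 1.02, -0.20 and -0.09, while *Myl6b* was 2.01. With the ribosomal protein covariate, *Myl6b* was 1.96 in Gas and 1.81 in Sol.

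By shares, the slow form of the regulatory chains was 1.08% ± 0.154 in WT Gas and 4.53% ± 1.56 in LSD1-mKO Gas, without overlap, and 42.2% ± 5.91 and 39.5% ± 3.26 in Sol, with overlap. The slow share of the essential chains likewise did not overlap in Gas and did so in Sol. Summed per kb, the 5 essential chains came to 6359.6 ± 789.8 CPM per kb in WT Gas and 2692 ± 841 in LSD1-mKO Gas, and to 6640.2 ± 1709.5 and 6054 ± 962 in Sol. The summed regulatory chains came to 18751 ± 6416 and 10423 ± 3067 in Gas and to 6485 ± 2078 and 8948 ± 1528 in Sol.

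The difference of the genotype values between Sol and Gas is likewise a description, since both were known when the genes were chosen. Over all 13749 genes, edgeR called 0 for the interaction of genotype and muscle (0.0%, with 671 or 4.88% at an unadjusted p under 0.05) and DESeq2 called 21 (0.153%). For *Myl6b* the difference of the log2 fold changes, Sol minus Gas, was -0.09 ± 0.30, with an interval of 2 SE on each side from -0.69 to 0.51. It was 1.41 ± 0.43 for *Mylpf*, 1.89 ± 0.63 for *Myl4* and 0.88 ± 0.37 for *Myl6*, whose genotype values were negative in Gas and positive in Sol. With each library left out in turn, these values fell as low as 1.11, 1.16 and 0.44, respectively. The difference was 0.82 ± 0.47 for *Myl1*, -0.75 ± 0.43 for *Myl2*, -0.51 ± 0.43 for *Myl3* and -0.33 ± 0.48 for *Mylk2*.

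The light chains work with heavy chains, other light chains, calmodulin, kinases and the myosin phosphatase, listed as 28 partner genes, of which 27 could be tested and *Myl7*, an atrial chain, was at or near 0. In WT mice 12 partners were higher and 4 lower in Sol than in Gas, beside 17.0% of all genes called, and in LSD1-mKO mice 11 were higher and 4 lower, beside 24.5% (edgeR). The slow heavy chain *Myh7* was at 180.5 ± 33.6 CPM in WT Gas (SD, n = 3) and 7903 ± 1176 in WT Sol (5.45 ± 0.27, edgeR adjusted p = 3.53e-09), and 32.0-fold higher in Sol in LSD1-mKO mice (edgeR adjusted p = 8.70e-11). *Myh4*, the heavy chain of the fastest fibers, was at 46205 ± 10928 CPM in WT Gas and 74.7 ± 60.2 in WT Sol (-9.27 ± 0.94, edgeR adjusted p = 7.02e-06).

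*Myh2*, of oxidative fast fibers, was higher in Sol (2.75 ± 0.49 in WT and 2.29 ± 0.37 in LSD1-mKO mice, edgeR adjusted p = 0.00100 and 2.70e-04). The sets higher in Sol in both genotypes also held the heavy chains *Myh3* (embryonic), *Myh6*, *Myh7b*, *Myh13* and *Myh10* (non-muscle), the light chains *Myl10* and *Myl12a* and the cardiac light chain kinase *Mylk3*. *Mylk4*, a kinase of the same family, was lower in Sol in both, as was *Myh4*. *Myh1* was not called between the muscles (0.82 ± 0.69 in WT and 0.63 ± 0.53 in LSD1-mKO, edgeR adjusted p = 0.439 and 0.420). Reads of *Myh6* and *Myh7*, which are close paralogs, and of *Myl12a* and *Myl12b* may be split imperfectly.

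Between genotypes none of the 27 partners was called in Gas or in Sol by edgeR, with 7 in each at an unadjusted p under 0.05, beside 9.06% of all genes in Gas and 15.5% in Sol. DESeq2 called *Myh8* and *Myh14* in Gas, beside 1.01% of all genes, and *Myh3* and *Myh8* in Sol, beside 4.53%. These, named after their values were seen, are the heavy chains of newborn (*Myh8*), non-muscle (*Myh14*) and embryonic (*Myh3*) myosin. *Myh8* was at 9.90, 12.9 and 3.52 CPM in WT Gas and 49.6, 42.9, 20.7, 16.5 and 74.3 CPM in LSD1-mKO Gas, without overlap. In Sol *Myh8* was at 25.7, 24.2 and 12.2 CPM in WT and 38.7, 41.5, 40.3, 39.8 and 37.7 CPM in LSD1-mKO libraries, again without overlap. *Myh1* was at 4342 ± 1257 CPM in WT and 1858 ± 1337 in LSD1-mKO Gas, and at 7661 ± 1344 and 2866 ± 2079.8 in Sol, where the genotypes did not overlap. The median log2 fold change of the partners was 0.08 in Gas and -0.01 in Sol, beside 0.01 and -0.01 for all genes.

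**Figure D4:**
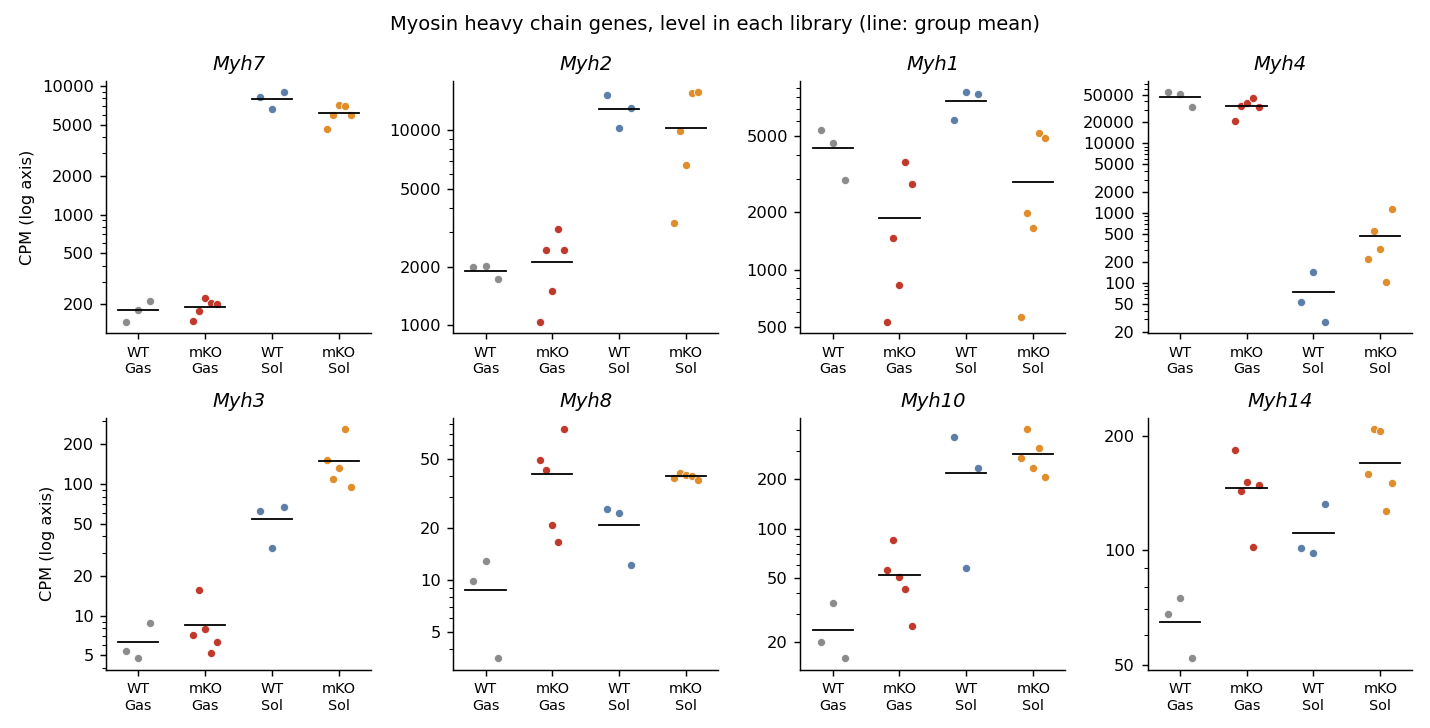
Level (CPM, logarithmic axis) of 8 myosin heavy chain genes in each library, with a line at the group mean (mKO stands for LSD1-mKO). *Myh7* and *Myh4* separate Sol from Gas, and *Myh1* spreads widely among the LSD1-mKO libraries, between 534 and 3670.4 in Gas and between 563 and 5235 in Sol.

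Markers of fiber types and other cells were read beside these values. Of 44 marker genes, none was called between genotypes in Gas or Sol by edgeR (0.0307% and 0.967% of all genes). At an unadjusted p under 0.05 were 8 of the 43 tested in Gas and 16 of 44 in Sol, beside 9.06% and 15.5% of all genes, and DESeq2 called 1 and 6, beside 1.01% and 4.53%. The 8 markers of embryonic or regenerating fibers summed to 349 to 967 CPM in WT Gas and 412 to 758 in LSD1-mKO Gas, and to 143 to 174 and 249 to 413 in Sol, where they did not overlap. In Gas the largest part of the sum was *Actc1*, at 587 ± 303 CPM in WT and 449 ± 135 in LSD1-mKO libraries. Members went both ways there, with *Actc1* at -0.38 ± 0.36 and *Myh8* at 2.20 ± 0.56 on the log2 scale. In Sol the largest part was *Myh3*, at 54.0 ± 18.4 and 150 ± 65.9 CPM. In Sol 4 of the 6 DESeq2 calls belonged to that list (*Myh3*, *Myh8*, *Tnnt2* and *Chrng*) and the others were *Cd68* of macrophages and *Cnn1* of smooth muscle, named after their values were seen. The part of these cells in the values of *Myl6b* and *Myl4* was not tested.

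The sums of the fast fiber, slow fiber, smooth muscle, endothelial, fibroblast and leukocyte lists overlapped between genotypes in Sol. Slow fiber markers summed to 21965 to 24104 CPM in WT and 16043 to 22392 in LSD1-mKO Sol, smooth muscle markers to 229 to 395 and 293 to 405, endothelial markers to 467 to 537 and 375 to 522, fibroblast markers to 768 to 1144 and 494 to 1601, and leukocyte markers to 91.2 to 113 and 78.6 to 183. In Gas, slow fiber markers summed to 728 to 1433 CPM in WT and 1094 to 1474 in LSD1-mKO libraries, which overlapped, while fibroblast markers summed to 1105 to 1671 and 773 to 922, which did not. The 2 satellite cell markers, *Pax7* and *Myf5*, summed to 4.97 to 5.48 CPM in WT Sol and 5.82 to 7.85 in LSD1-mKO Sol, without overlap. No marker gene was at 0 in all libraries of a group.

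The genes whose level was most like that of *Myl6b* over the 16 libraries were *Casq2* (Pearson r = 0.975), *5930412G12Rik* (0.965), *Anxa4* (0.964), *Arpp21* (0.962) and *Galns* (0.960), among 12299 genes with a mean of at least 1 CPM. These correlations of log2 CPM describe 16 libraries that fall into 4 groups, and a ranking by Spearman's rho shared 1 of the 5 genes. *Casq2*, the calcium store protein of slow and cardiac muscle, was at 43.6, 40.5 and 44.7 CPM in WT Gas and 130.1, 181, 76.1, 82.6 and 115 CPM in LSD1-mKO Gas, and in Sol at 364, 296 and 351 CPM in WT and 678, 835, 581, 779.9 and 756 CPM in LSD1-mKO libraries. Like *Myl6b*, each of the 5 genes formed 4 groups without overlap in the order WT Gas, LSD1-mKO Gas, WT Sol and LSD1-mKO Sol. They were picked for their likeness to *Myl6b* in these same libraries, so the shared order is no separate finding. The log2 fold change of *Casq2*, LSD1-mKO over WT, was 1.45 ± 0.29 in Gas and 1.10 ± 0.16 in Sol. For *Galns*, a lysosomal sulfatase, it was 1.58 ± 0.30 and 1.54 ± 0.26. *Galns* averaged 1.25, 3.72, 8.12 and 23.9 CPM and *Anxa4*, an annexin, 17.9, 24.0, 40.3 and 60.4 CPM in the same order of groups.

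The genes most like *Myl1* were *Mrln* (0.966), which encodes the calcium pump inhibitor myoregulin, *Me1* (0.950), the cytosolic malic enzyme, and *Dhrs7c* (0.944). Those most like *Myl2* were *Tnnt1* (0.993), the slow troponin T, *Pdlim1* (0.988) and *Hmgb3* (0.982). Among the members, *Myl6b* correlated with *Myl2* (r = 0.949) and *Myl3* (0.910) and inversely with *Myl1* (-0.839), *Mylk2* (-0.820) and *Mylpf* (-0.726) over the same 16 libraries. With its neighbour *Myl6* the value was -0.358 and with *Myl4* 0.287.

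**Figure D5:**
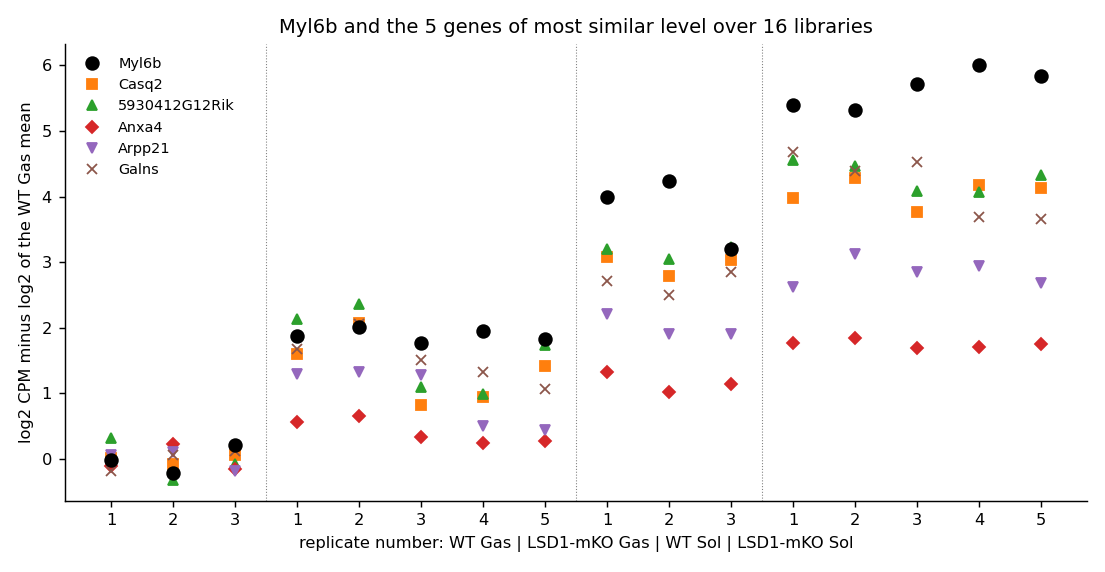
Log2 CPM of *Myl6b* and of the 5 genes with the highest Pearson correlation with it, each relative to its own WT Gas mean, in the 16 libraries ordered by group and replicate number. *Myl6b* lies near 2 in LSD1-mKO Gas and above 5 in LSD1-mKO Sol, higher there than the other 5 genes.

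The 3 nearest counted genes on each side of *Myl6b* are *Myl6* (11 bases away), *Smarcc2* (3674 bases) and *Mir8105* on one side and *A430046D13Rik* (678 bases), *Esyt1* (11279 bases) and *Mir6916* on the other. Both microRNA genes had at most 0.0818 CPM in any library and were not tested. *Smarcc2*, a chromatin remodelling subunit, was at 76.9, 76.5, 78.6 and 75.9 CPM on average in WT Gas, LSD1-mKO Gas, WT Sol and LSD1-mKO Sol. The noncoding *A430046D13Rik* was at 23.4, 21.4, 21.2 and 22.9 CPM. None of the 4 tested neighbours was called between genotypes by edgeR, beside 0.0307% of all genes in Gas and 0.967% in Sol. With shares this low, the absence of calls says little about these neighbours. Their log2 fold changes were between -0.54 (*Myl6*) and 0.03 (*Esyt1*) in Gas and between -0.06 (*Smarcc2*) and 0.32 (*Myl6*) in Sol. Between muscles, *Myl6* was lower in Sol in WT and *Esyt1* higher in Sol in LSD1-mKO mice (0.46 ± 0.14, edgeR adjusted p = 0.0212).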

How the data were processed

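RNA-seq libraries were made from poly(A) RNA of Gas and Sol muscle and read for 75 bases from one end. The authors aligned them to mm10 (STAR) and the file headers name featureCounts 1.5.2 for counting on the UCSC gene models. The deposited tables hold raw counts, not normalized and with no strand option. Tables of the authors' own comparisons (log2 fold change, log2 CPM, p-value, adjusted p) were not used. Each count column was matched to a sample by name, and 0 columns were left over.

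Counts were tested in R 4.3.3 by the quasi-likelihood test of edgeR 4.0.16 (filterByExpr with a minimum count of 10, TMM scaling, Benjamini-Hochberg adjustment over all genes tested). Genotypes were compared within a muscle, and the muscles and the interaction in a fit of all 16 libraries. The labels do not state that the libraries of a group came from separate mice, so p-values measure the spread between libraries. SE was obtained from the log2 fold change and the F statistic. The fits were tested on simulated counts with 200 genes changed by 2 on the log2 scale, of which 179 were recovered with 12 false calls in Gas (12909 genes tested), 190 with 5 in Sol (13192), 175 with 7 between muscles in WT (13588), 193 with 10 in LSD1-mKO (13575) and 151 with 12 for the interaction (13550).

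Coordinates and exon lengths come from GENCODE M21 on GRCm38, the assembly named mm10 by UCSC, which held 23376 of the 24421 symbols. Promoter windows come from RefSeq, which gave one for 7 of the 8 genes. The genes named were the 8 members, the members of the partner and marker lists that results turn on, 3 neighbours on each side of *Myl6b*, and the genes ranked most like *Myl6b* (5), *Myl1* (3) and *Myl2* (3). The members and lists were chosen with earlier results of these data known. By the data, replicate numbers paired Gas with Sol in LSD1-mKO mice, where the 5 same-numbered pairs deviated together (r = 0.212 to 0.359), and not in WT mice (r = -0.515 to 0.123). The alternatives were RLE scaling, no filter, DESeq2 1.42.0, a ribosomal protein covariate, the replicate block, the libraries of 1 genotype alone, Spearman ranking, undivided reads and each library left out. Leaving out the 3 libraries of high ribosomal protein level and the paired test of the shares were chosen after seeing the data.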

Additional observations from a re-analysis of the deposited data

How the results depend on the processing

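The calls between muscles of *Myl2*, *Myl3* and *Myl6b* in both genotypes, of *Myl1* and *Mylpf* in WT and of *Mylk2* in LSD1-mKO mice held under every alternative run, and the shares kept their direction. With the ribosomal protein covariate, Sol against Gas turned to 0.68 for *Myl4* in WT and to 0.51 for *Myl6* in LSD1-mKO mice. Without the 3 libraries of high ribosomal protein level, chosen after seeing the data, *Myl6* in LSD1-mKO mice turned to 0.11 and the interaction of *Myl6b* to 0.020. Leaving out 1 library at a time put these at -0.14 to 0.12 and -0.37 to 0.13. The cause was not tested. Genes called between genotypes numbered 4 in Gas (10 without the filter, 132 by DESeq2, 1 to 7 without 1 library, fewest without WT Gas 1 or WT Gas 2, 2 without LSD1-mKO Gas 2 or LSD1-mKO Gas 5, most without WT Gas 3). In Sol they numbered 129 (336 without the filter, 605 by DESeq2, 285 with the covariate, 23 without the library of high ribosomal protein level, 11 to 228 without 1 library, fewest without WT Sol 3, then 13 without WT Sol 1, 35 without LSD1-mKO Sol 2, 67 without LSD1-mKO Sol 3, most without LSD1-mKO Sol 5). Sol against Gas in WT gave 2337 genes (1011 in WT libraries alone, 1132 to 2839 without 1 library, fewest without WT Sol 1 and 1199 without WT Sol 3), and the interaction gave 0 (21 by DESeq2, 0 to 1 without 1 library). Between genotypes same-numbered libraries share only a number, with 2 of 3 pairs over 0.1 in Gas and 1 of 3 in Sol. The replicate block there called 412 genes in Sol, and *Myl6b* in Gas was not called at the same log2 fold change of 1.90. Between muscles in WT the block ended the call of *Myl6* (-0.88, edgeR adjusted p = 0.0927), in LSD1-mKO mice it kept the 6 calls but ended those of the shares (34.9, 64.0 and 4.91 points, exact p = 0.0625 within 5 pairs, chosen after seeing the data), and it called 1 gene for the interaction. Depth limits *Myl6b* in WT Gas, with 73 to 135 reads per library.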
